A study of Mus musculus with 6 samples.

Results

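Genes of redox control were examined in RNA from immune cells of mouse hearts. The members are 35 genes taken by name from the deposited table of 57010 genes, and each of the 35 names matched 1 Ensembl identifier. They comprise 4 subunits of the phagocyte NADPH oxidase (Cybb, Cyba, Ncf1 and Ncf4) and 31 antioxidant genes, which cover peroxiredoxins, the thioredoxin system, glutathione supply and use, superoxide dismutases, catalase, and the regulators Nfe2l2 and Keap1 with their classic target Nqo1. The cells were CD45-positive and CD90.2-negative, that is leukocytes without the Thy1 antigen of T cells, and came from hearts of Ova DTG mice, a genotype that expresses ovalbumin only in the heart per the series' design text. Mice of both groups had received naïve ovalbumin-specific CD8 T cells (OTI). The labels name 3 libraries OTI + ICI, from mice given 200 µg each of antibodies against CTLA-4 (clone 9D9) and PD-1 (clone RPM1-14), and 3 libraries OTI + Isotype, from mice given isotype control antibody. The titles of both groups name myocarditis. Age, strain, time of harvest, isotype dose and the number of animals behind a library go unstated in the sources used here. Libraries are called by their labels, because every direction below rests on them and would turn if the labels had been exchanged; whether they were was not tested.

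Phagocytes make superoxide with a membrane oxidase. Its core is the flavocytochrome of CYBB and CYBA, which is switched on when cytosolic subunits, among them NCF1 and NCF4, and the GTPase RAC2 join it. Superoxide dismutases turn superoxide into hydrogen peroxide, which catalase, glutathione peroxidases and peroxiredoxins remove. Peroxiredoxins are recharged by thioredoxin and thioredoxin reductase, and glutathione by glutathione reductase. The transcription factor NRF2, encoded by Nfe2l2 and held down by KEAP1, drives many of these genes through the antioxidant response element in their promoters.

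Promoter sequences are shown first, because several members carry the core letters of this element close to their start. The transcripts of these members did not all compare alike between the groups. The core letters TGACNNNGC were searched on both strands of RefSeq windows (build GRCm38.p6) that run from 250 bases before to 50 bases after each annotated start. Of the 35 members 30 had 38 such windows, and 7 windows of 7 genes held the core (18.4%), against 12.4% of all 32851 windows. The 7 genes were Prdx1, Mgst1, Srxn1, Txnrd1, Gclm, Nfe2l2 and Sod1. The match of Srxn1 lay after the start and is not printed. The windows below hold only bases before the start, read 5′ to 3′ on the strand of the gene, with the core or its reverse complement in capitals.
Prdx1, chr4:116685416-116685524, strand +: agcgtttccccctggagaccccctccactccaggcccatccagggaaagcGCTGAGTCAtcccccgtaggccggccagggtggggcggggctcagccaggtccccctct
Mgst1, chr6:138140421-138140526, strand +: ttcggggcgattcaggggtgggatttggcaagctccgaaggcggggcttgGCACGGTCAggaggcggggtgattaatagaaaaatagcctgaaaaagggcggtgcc
Txnrd1, chr10:82859064-82859172, strand +: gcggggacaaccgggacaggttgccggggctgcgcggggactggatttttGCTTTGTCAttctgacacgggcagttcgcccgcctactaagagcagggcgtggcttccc
Gclm, chr3:122245373-122245481, strand +: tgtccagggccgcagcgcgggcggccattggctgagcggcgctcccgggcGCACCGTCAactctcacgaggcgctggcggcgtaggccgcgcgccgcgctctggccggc
Nfe2l2, chr2:75704845-75704913, strand -: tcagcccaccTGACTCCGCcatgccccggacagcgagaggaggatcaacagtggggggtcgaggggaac
Sod1, chr16:90220656-90220761, strand +: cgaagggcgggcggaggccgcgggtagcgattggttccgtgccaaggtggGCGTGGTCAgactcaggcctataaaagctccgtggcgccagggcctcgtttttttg
Among these, Prdx1 and Mgst1 were called lower under the ICI label, Srxn1 too, while Txnrd1, Gclm, Nfe2l2 and Sod1 were not called; the values follow. For the other letters searched, GAGGAA, the core bound by the myeloid factor PU.1, occurred in 8 of the 38 windows (21.1%, against 28.3% of all windows), and among the oxidase subunits in that of Cybb alone; Ncf4 had no window. The E box CACGTG occurred in 1 member window (2.63%, against 7.15% of all), that of Prdx4. A match describes letters in a window, not binding.

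The libraries held 21528274 to 30736316 counts each, and 14575 genes passed the filter on low counts. The 35 members took 0.632% to 0.647% of the counts of libraries labelled ICI and 0.938% to 1.01% of those labelled isotype. Thy1, the antigen sorted against, was at most 0.0929 counts scaled to a common library total (CPM) in any library, while the leukocyte gene Ptprc was at 949 to 1423 CPM. The groups differed in markers of cell type, in a comparison where 35% of all genes tested were called higher under the ICI label and 33.9% lower. The summed level of 10 resident macrophage genes was 5765 to 6549 CPM in libraries labelled ICI and 77.0 to 130.2 CPM in those labelled isotype, all 10 called higher. The sum of 8 monocyte genes was 1413 to 1495 CPM against 4518 to 9496 CPM, with 6 of 8 called lower and 0 higher. The sum of 6 B cell genes was 832.6 to 1643 CPM against 53.5 to 96.4 CPM, with 6 of 6 called higher. Conventional dendritic cell genes summed to 314 to 466 CPM against 48.1 to 87.2 CPM (5 of 6 higher, 1 lower), and cardiomyocyte genes to 45.8 to 59 CPM against 5.52 to 14.3 CPM (7 of 8 higher). The sum of 6 NK cell genes was lower, at 99.7 to 144.5 CPM against 212 to 218 CPM, although 5 of the 6 were called higher and 1 lower. The 1 called lower was Klrk1, at 28.3 to 44.4 CPM against 176 to 189 CPM, which gave most of the isotype sum. Fibroblast, endothelial, mast cell and T cell sums were each higher in the libraries labelled ICI, at most 194.5 CPM in any library. Of the 8 T cell genes 2 were called higher, 1 lower, 1 was not called and 4 were too scarce to test. In the libraries labelled ICI most of the T cell sum was Cd4, at 9.66 to 19.2 CPM against 0.284 to 1.11 CPM. Trac was the 1 called lower (edgeR adjusted p = 0.0261). In bulk RNA, fewer cells of a type and less RNA per cell cannot be told apart, and the part of these shifts in the results below was not tested. Isotype replicate 3 had the lowest monocyte sum of its group (4518 CPM against 7227 and 9496 CPM). Much of that sum was Chil3, at 3977, 5913 and 1934 CPM in isotype replicates 1, 2 and 3. Ccr2 was highest in replicate 3 (757 CPM against 593 and 580 CPM), and the other listed monocyte genes were lowest there. Isotype replicate 3 was also the lowest of the 3 isotype libraries for 20 of the 35 members (57.1%), against 29.6% of all genes tested. Replicate 3 of each group carried more Xist than Y-linked counts and the other libraries did not, so a sex term was among the alternatives.

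Most members that differed were lower in the libraries labelled ICI. By the quasi-likelihood test of edgeR at a Benjamini-Hochberg adjusted p under 0.05 over all 14575 genes, 20 of the 35 were called lower, 4 were called higher, 10 were not called and Gsta4 was too scarce to test. The background for these counts was large: 33.9% of all genes tested were called lower and 35% higher. The median log2 fold change (labelled ICI minus isotype) of the 34 tested members was -0.47, where that of all genes tested was 0.03. Of the members 11 were called more than 2-fold lower (12.8% of all genes were) and 3 more than 2-fold higher (20.9% of all genes). Tested against a fixed fold of 1.5, 14 members were called lower (16.5% of all genes) and 3 higher (21.3%). With upper-quartile factors 4 members were called higher and 17 lower (42.2% and 26.4% of all genes), and with library totals alone again 4 and 17 (42.9% and 25.6%). In either direction 68.9% of all genes were called in the fit as reported. The 3 libraries of each group were fully apart for 18 members with ICI below (28.2% of all genes tested) and 5 with ICI above (45.3%), the shares of all genes coming to 73.5% together. The levels in each library and the fitted fold changes are plotted together for all members.

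**Figure D1:**
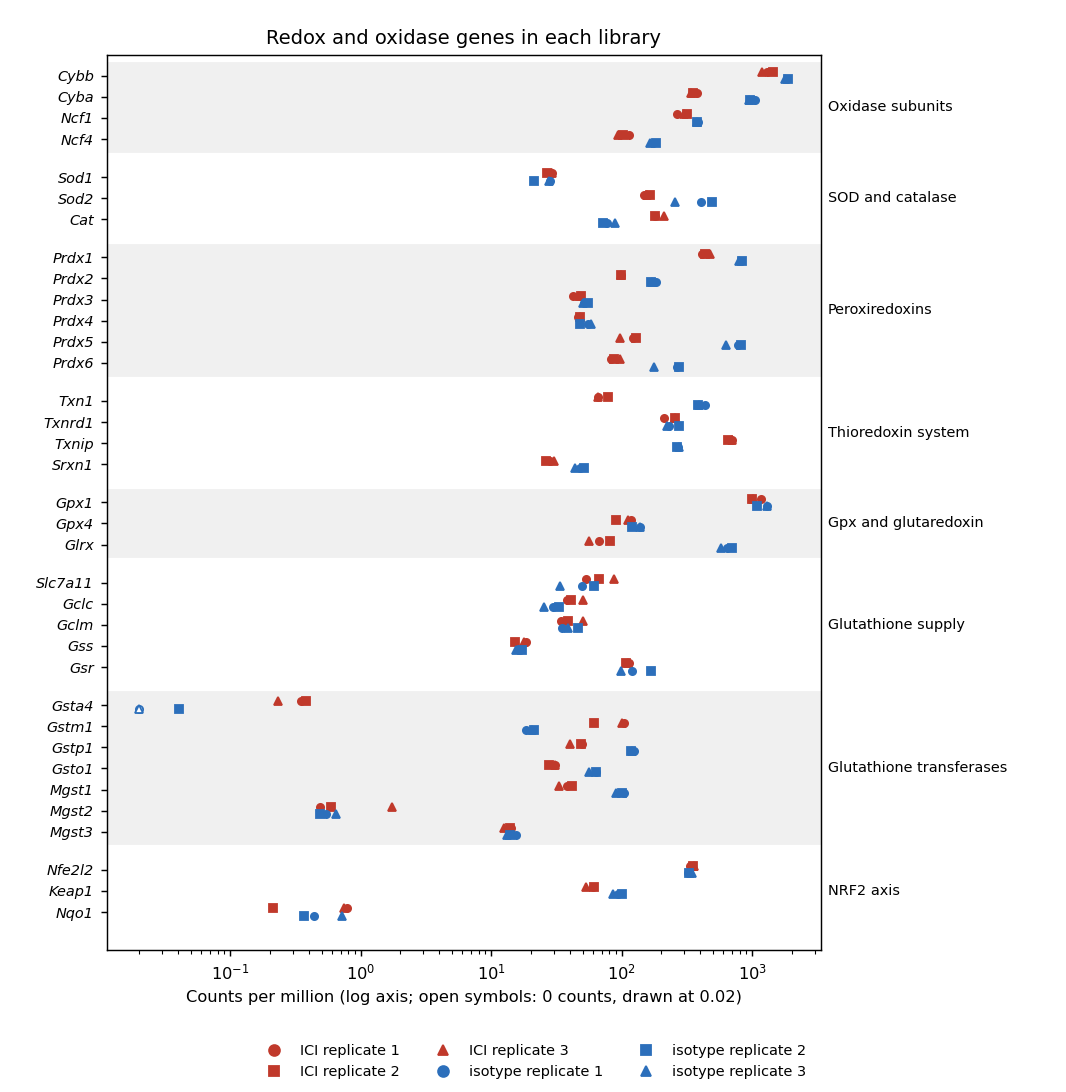
CPM of the 35 members in each of 6 libraries, on a log axis, grouped by role, with red for libraries labelled ICI, blue for isotype and 1 symbol shape per replicate; open symbols mark 0 counts. Glrx, Txn1 and Prdx5 have the widest gaps with isotype higher, and Gstm1, Txnip and Cat lie the other way.

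**Figure D2:**
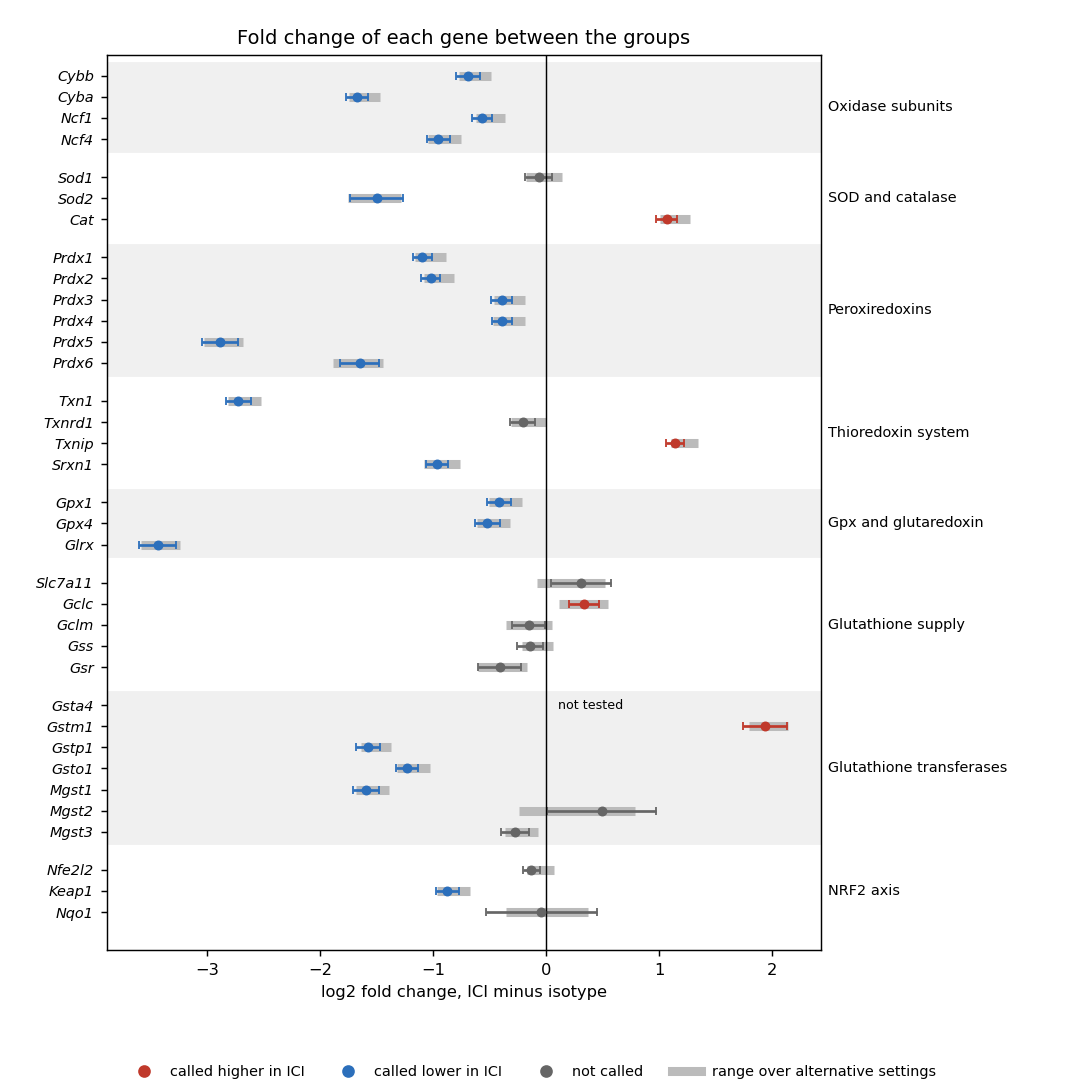
Fitted log2 fold change (labelled ICI minus isotype) of 34 members with its standard error, coloured by call, over a grey bar that spans the values from 17 alternative settings. Glrx reached -3.44 and Gstm1 1.94, and the grey bars of Nfe2l2, Nqo1, Slc7a11, Gclm, Gss, Mgst2 and Sod1 cross 0.

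All 4 oxidase subunits were called lower in the libraries labelled ICI, by unequal amounts, where 33.9% of all genes tested were called lower. The groups did not overlap for any of the 4, and 28.2% of all genes tested lay fully lower in this way. Cybb (ENSMUSG00000015340), the catalytic chain of the flavocytochrome, was at 1292, 1436 and 1174 CPM in ICI replicates 1, 2 and 3, and at 1828, 1884 and 1782 CPM in isotype replicates 1, 2 and 3. The groups did not overlap, and the fold was 1.62 (log2 fold change -0.69, SE 0.11, edgeR adjusted p = 0.000259). Its partner chain Cyba (ENSMUSG00000006519) had the widest gap of the 4, at 375, 350 and 337 CPM against 1047, 961 and 936 CPM. The fitted log2 fold change was -1.67 with an SE of 0.10, or 3.19-fold (edgeR adjusted p = 5.2e-07). Ncf1, the organizer subunit, was at 266, 313 and 302 CPM against 379, 378 and 377 CPM, with the isotype libraries almost at a single value. Its fold was 1.48 (log2 fold change -0.57, SE 0.09, edgeR adjusted p = 0.000212). Ncf4, the subunit that binds membrane phosphoinositides, was at 113, 102 and 93.5 CPM against 172, 182 and 165 CPM, 1.94-fold lower (edgeR adjusted p = 2.25e-05). Against a fixed fold of 1.5 Cyba and Ncf4 kept their calls, and Cybb (adjusted p = 0.132) and Ncf1 (0.549) did not. At that fold 16.5% of all genes tested were called lower. The ratio of Cyba to Cybb counts, which no scaling alters, was 0.290, 0.243 and 0.287 in the ICI replicates and 0.573, 0.510 and 0.526 in the isotype replicates. All 3 libraries labelled ICI lay below all 3 labelled isotype; the exact permutation test, two-sided, gave p = 0.1, and no smaller value is possible with 3 libraries a group. Benjamini-Hochberg adjustment over the 13 ratios of gene pairs computed, which were chosen after the values were seen, gave 0.118.

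**Figure D3:**
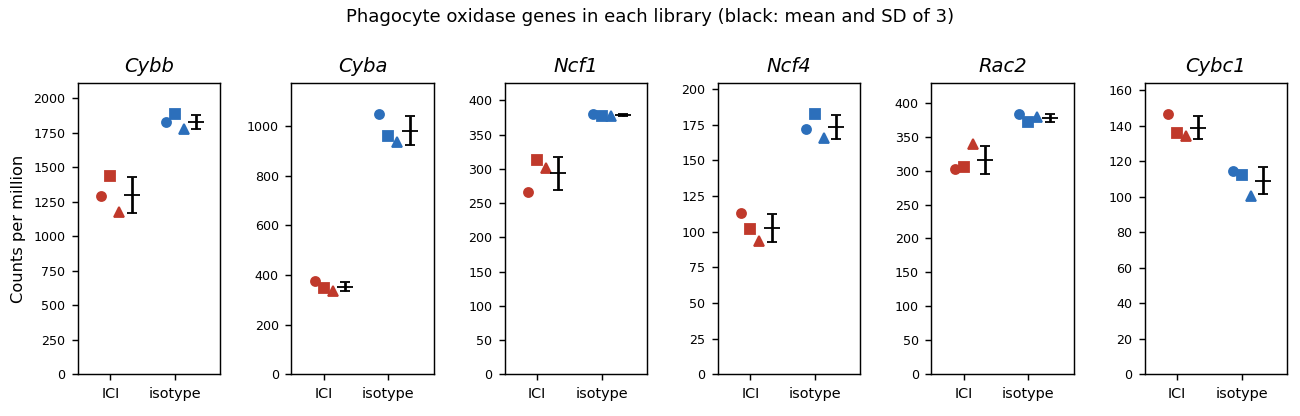
CPM of 6 phagocyte oxidase genes in each library, with group means and SD of 3 in black and axes from 0. Cybb, Cyba, Ncf1, Ncf4 and Rac2 are lower in every library labelled ICI, and Cybc1 is higher there in CPM without being called. Of all genes tested 28.2% lay fully lower and 45.3% fully higher.

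The parts of the oxidase outside the member list did not all follow these 4. Cybc1, the chaperone that the flavocytochrome needs for its expression, was at 139 ± 6.54 CPM against 109 ± 7.66 CPM (SD, n = 3 each). It was not called (log2 fold change 0.15, edgeR adjusted p = 0.187), but was called higher with upper-quartile factors (0.00858), library totals alone (0.00428) and the strict filter (0.043), with adjusted p from 0.00428 to 1 across alternatives. Rac2, the GTPase of the phagocyte complex, was 1.38-fold lower (edgeR adjusted p = 0.000447). Of the 16 further oxidase genes listed 5 were called lower and 2 higher, 2 were not called and 7 were too scarce to test, where 33.9% of all genes tested were called lower and 35% higher. Among them were Arhgdib, an inhibitor of small GTPases (2.01-fold lower), Vav1, an exchange factor for RAC (1.77-fold lower), and the kinases Prkcd (1.57-fold lower) and Prkcb (2.43-fold higher). Markers of neutrophils, which carry much of this oxidase, summed to 342 to 399 CPM in libraries labelled ICI and 216 to 280 CPM in those labelled isotype, with 5 of 10 called higher and 1 lower. The 1 called lower was the surface gene Ly6g, at most 1.18 CPM in any library (edgeR adjusted p = 0.0243). Most of the sum in every library was S100a8 and S100a9. S100a9 was called higher and S100a8 was not called (edgeR adjusted p = 0.421). Elane, too scarce to test, was at 0 to 0.0465 CPM against 0.372 to 0.568 CPM. The part of neutrophils in the result was not tested.

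The enzymes that act next on superoxide and peroxide went different ways. Sod2 (ENSMUSG00000006818), the manganese dismutase of mitochondria, was at 146, 166 and 155 CPM in the ICI replicates and 403, 486 and 256 CPM in the isotype replicates. Isotype replicate 3 was the lowest of its group and still above every library labelled ICI. The log2 fold change was -1.5 (SE 0.24, edgeR adjusted p = 0.0012), and without isotype replicate 3 it was -1.75. Sod1, the copper and zinc dismutase of the cytosol, overlapped between the groups at 26.7 to 29.0 CPM against 21.2 to 28.0 CPM (edgeR adjusted p = 0.634). Cat (ENSMUSG00000027187), the catalase of peroxisomes, was higher in the libraries labelled ICI, at 181, 179 and 210 CPM against 76.3, 71.7 and 88.5 CPM. The groups did not overlap, and the fitted log2 fold change was 1.07 with an SE of 0.09, or 2.09-fold (edgeR adjusted p = 6.17e-06). Red cells are rich in catalase and in Prdx2, and 6 erythroid genes summed to 19.3 to 38.8 CPM in libraries labelled ICI and 0.325 to 2.56 CPM in those labelled isotype. Their part in the level of Cat was not tested.

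All 6 peroxiredoxins were called lower in the libraries labelled ICI, with folds from 1.31 to 7.39, where 33.9% of all genes tested were called lower. Prdx5 (ENSMUSG00000024953), found in mitochondria, peroxisomes and cytosol, had the widest gap. Its level was 122, 128 and 96.6 CPM against 781, 814 and 630 CPM, so that the highest library labelled ICI lay far below the lowest labelled isotype. The log2 fold change was -2.88 (SE 0.16, edgeR adjusted p = 7.41e-07). Prdx6, the member with phospholipase activity that relies on glutathione, was at 82.2, 86.3 and 96.5 CPM against 266, 276 and 178 CPM. It was 3.14-fold lower (edgeR adjusted p = 6.46e-05), with isotype replicate 3 the nearest to the other group. Prdx1 and Prdx2 are cytosolic enzymes. Prdx1 was at 412, 430 and 471 CPM against 813, 830 and 793 CPM (2.14-fold lower, edgeR adjusted p = 2.44e-06), and Prdx2 was at 98.2, 98.6 and 98.3 CPM against 184, 168 and 170 CPM (2.03-fold lower, adjusted p = 2.97e-06). The count ratio of Prdx1 to Prdx2 overlapped between the groups, at 4.2 to 4.79 and 4.42 to 4.95 (exact two-sided permutation p = 0.4, in a design that cannot go below 0.1, so that a difference is not excluded). Prdx3 of mitochondria and Prdx4 of the endoplasmic reticulum were each 1.31-fold lower (edgeR adjusted p = 0.00332 and 0.0034). Prdx4 overlapped between the groups, at 46.4 to 47.7 against 47.5 to 58.5 CPM. Neither Prdx3 nor Prdx4 was called under upper-quartile factors (0.0569 and 0.065), under library totals alone (0.0868 and 0.101) or against a fixed fold of 1.5.

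Per unit of transcript length (TPM, transcripts scaled to a common total, from the union of exons), the make-up of the peroxiredoxin pool differed. Prdx5 held 19.5%, 19.5% and 14.8% of peroxiredoxin TPM in ICI replicates 1, 2 and 3, and 45.1%, 46.1% and 41.5% in the isotype replicates. Prdx1 held 46.0% to 50.5% and 33.0% to 36.7%. With median transcript lengths in place of exon unions, Prdx5 held 12.8% to 17.3% and 36.7% to 41.2%, while Prdx1 led in both groups (63.2% to 67.8% and 45.6% to 50.1%). The lower share of Prdx5 in the libraries labelled ICI therefore held under both lengths, whereas its rank above Prdx1 in the libraries labelled isotype held with exon unions only.

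**Figure D4:**
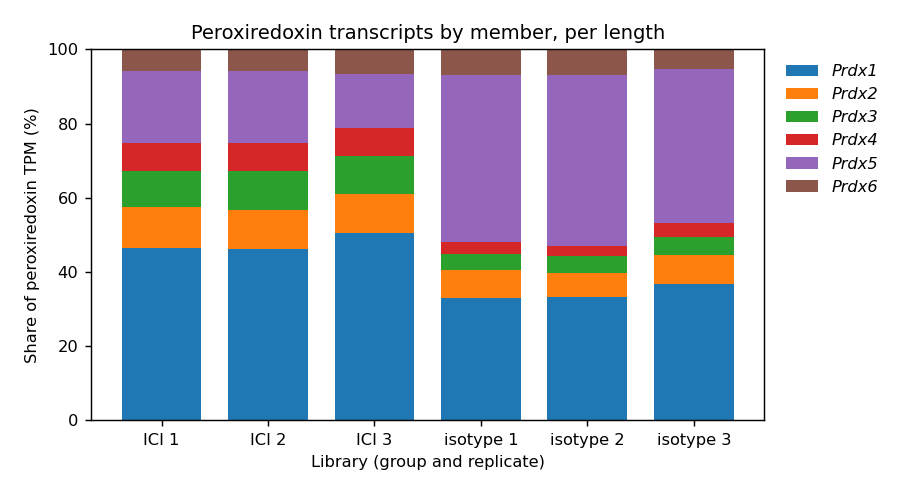
Stacked share of peroxiredoxin TPM (exon union lengths) held by each of 6 members, 1 bar per library. The Prdx5 share is 14.8% to 19.5% in the libraries labelled ICI and 41.5% to 46.1% in those labelled isotype.

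The thioredoxin system split between the protein, its inhibitor and its reductase. Txn1 (ENSMUSG00000028367), cytosolic thioredoxin, was at 65.4, 78.1 and 65.9 CPM in the ICI replicates and 433, 381 and 388 CPM in the isotype replicates. It was 6.6-fold lower without overlap (log2 fold change -2.72, SE 0.11, edgeR adjusted p = 4.79e-08). Txnip (ENSMUSG00000038393), which binds thioredoxin and also limits glucose uptake, was higher at 700, 650 and 697 CPM against 270, 266 and 272 CPM. The fold was 2.2 (log2 fold change 1.14, SE 0.08, edgeR adjusted p = 1.45e-06). The count ratio of Txnip to Txn1 was therefore 8.32 to 10.7 in the libraries labelled ICI and 0.623 to 0.702 in those labelled isotype (exact two-sided permutation p = 0.1; adjusted over 13 ratios 0.118). Txnrd1, the reductase, overlapped at 212, 256 and 254 CPM against 229, 275 and 220 CPM (edgeR adjusted p = 0.123); without isotype replicate 3 it was called lower (0.0397; adjusted p from 0.0397 to 1 across alternatives). Srxn1, sulfiredoxin, which repairs overoxidized peroxiredoxins, was 1.95-fold lower at 28.0, 26.0 and 30.4 CPM against 48, 51.4 and 43.8 CPM (edgeR adjusted p = 1.89e-05).

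Glutaredoxin had the largest fold of the 34 tested members. Glrx (ENSMUSG00000021591), which uses glutathione to free protein thiols, was at 67.1, 80.7 and 55.6 CPM in the ICI replicates and 644, 702 and 572 CPM in the isotype replicates. Each isotype library was thus several times above each library labelled ICI. The fold was 10.8 (log2 fold change -3.44, SE 0.16, edgeR adjusted p = 4.26e-07). Together with Txn1 and Prdx5 it was among 3 members called more than 4-fold lower, as 2.79% of all genes tested were. Gpx1 and Gpx4 differed by smaller folds. Gpx1, the abundant cytosolic enzyme, was at 1153, 1000 and 1004 CPM against 1299, 1078 and 1298 CPM, with overlap (1.34-fold lower, edgeR adjusted p = 0.00638). It was no longer called under upper-quartile factors (0.076), under library totals alone (0.0836), in the libraries coded male alone (0.0533) or against a fixed fold of 1.5. Gpx4, which reduces lipid peroxides and restrains ferroptosis, was 1.44-fold lower (106 ± 14.3 CPM against 132 ± 11 CPM, SD, n = 3 each, edgeR adjusted p = 0.00191). Its reads can be shared with processed copies, so its level is less certain.

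While 4535 of all 14575 genes tested were not called, 4 of the 5 genes that supply or recycle glutathione were not. These were the cystine transporter Slc7a11 (53.2, 67.3 and 86.9 CPM against 49.6, 61.6 and 33.6 CPM, edgeR adjusted p = 0.339), Gclm, the modifier subunit of glutamate-cysteine ligase (33.9, 38.6 and 50.8 CPM against 34.9, 45.7 and 38.4 CPM, 0.367), glutathione synthetase Gss (15.2 to 18.3 CPM against 15.5 to 17.2 CPM, 0.301) and the reductase Gsr (114, 108 and 112 CPM against 119, 168 and 97.8 CPM, 0.0898). Isotype replicate 3 was the lowest library of all 6 for both Slc7a11 and Gsr, and without it Gsr was called lower (adjusted p = 0.00434). Gsr was also called lower by DESeq2 on all libraries (0.0348) and in the libraries coded male alone (0.0113), over a range of 0.00434 to 0.88. Gclc, the catalytic subunit of the ligase, was higher in the libraries labelled ICI at 37.9, 40.4 and 50.3 CPM against 29.9, 33.2 and 25.2 CPM, a log2 fold change of 0.34 with an SE of 0.13 (edgeR adjusted p = 0.0432). The call lay at the threshold. It was lost without ICI replicate 2 or 3 (adjusted p = 0.0536 and 0.148), without isotype replicate 1 or 3 (0.104 and 0.177) and in 6 other settings, within a range of 0.00511 to 1. With the replicate block its adjusted p was 0.0733.

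Glutathione transferases, which couple glutathione to electrophiles, differed in both directions. Gstm1 (ENSMUSG00000058135) was the member with the largest rise among those tested, at 103, 61.5 and 101 CPM against 18.6, 21.2 and 20.5 CPM. The log2 fold change was 1.94 (SE 0.19, edgeR adjusted p = 5.81e-05), with ICI replicate 2 the lowest of its group. Gstp1, of the pi class, was lower at 49.2, 49 and 39.9 CPM against 123, 117 and 118 CPM (2.98-fold, edgeR adjusted p = 1.33e-06). The count ratio of Gstm1 to Gstp1 was 1.25 to 2.52 in the libraries labelled ICI and 0.151 to 0.181 in those labelled isotype (exact two-sided permutation p = 0.1; adjusted over 13 ratios 0.118). Gsto1, of the omega class, was 2.35-fold lower (29.7 ± 1.62 CPM against 60.6 ± 3.92 CPM, SD, n = 3 each, edgeR adjusted p = 2.48e-06). The microsomal Mgst1 was 3.01-fold lower at 37.7, 41.5 and 33.0 CPM against 104, 99.5 and 90.6 CPM (edgeR adjusted p = 1.79e-06). Mgst3 overlapped at 12.4 to 14.1 CPM against 13.3 to 15.5 CPM (edgeR adjusted p = 0.0717; 0.0415 without isotype replicate 3 and 0.0496 with a sex term). Mgst2 was scarce, at 0.483 to 1.72 CPM against 0.487 to 0.651 CPM, and its fitted log2 fold change of 0.49 (edgeR adjusted p = 0.388) turned to -0.24 without ICI replicate 3. Gsta4 had 22 counts in the libraries labelled ICI and 1 in those labelled isotype. With counts pooled per group over the pooled library totals, the ratio was 27.5 (exact 95% binomial interval 4.44 to 1134, counting error only). Reads of Gstm1 and Gstp1 may be shared with near-identical family members, so these values are uncertain one by one; Gstp2, named after its values were seen, was at 2.92 ± 0.613 CPM against 0.825 ± 0.526 CPM (SD, n = 3 each) and called higher (edgeR adjusted p = 0.00372).

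The NRF2 axis itself showed little difference in the factor and a lower level of its inhibitor Keap1. Nfe2l2 was at 335, 349 and 357 CPM in the ICI replicates and 322, 328 and 343 CPM in the isotype replicates (log2 fold change -0.13, SE 0.07, edgeR adjusted p = 0.134). Its sign turned with upper-quartile factors (0.05) and library totals alone (0.07). Keap1 was 1.83-fold lower at 60.2, 61.7 and 53.3 CPM against 94.1, 99.7 and 85.8 CPM, a log2 fold change of -0.88 with an SE of 0.10 (edgeR adjusted p = 4.48e-05). Nqo1, a quinone reductase often read as a marker of NRF2 activity, was at most 0.79 CPM in any library and was not called (edgeR adjusted p = 0.937). Of 20 further regulators and targets listed, 7 were called higher and 6 lower, while 7 were not called, shares near those of all genes (35% higher, 33.9% lower); their median log2 fold change was -0.02. The 4 with the smallest p were all lower. They were the pentose phosphate enzymes Tkt (2.44-fold), Taldo1 (2.03-fold) and Pgd (2.28-fold), which serve NADPH supply, and the ferritin heavy chain Fth1 (1.97-fold; edgeR adjusted p of at most 3.26e-05 for each). Hmox1, haem oxygenase and another classic target, named after its value was seen, was higher at 453 ± 49 CPM against 252 ± 22.5 CPM (1.56-fold, SD, n = 3 each, edgeR adjusted p = 0.000323; not called against a fixed fold of 1.5, 0.247). The listed regulators Bach1 and Bach2, named after their values were seen, were 1.52-fold and 13.7-fold higher (edgeR adjusted p = 0.00518 and 0.000387).

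Further genes of the glutathione and thioredoxin pathways were called in both directions. Of 27 further glutathione genes, 11 were called higher, 9 lower, 4 were not called and 3 were too scarce to test, beside 35% of all genes tested called higher and 33.9% lower. They hold 3 more peroxidase family genes, named after their values were seen: Gpx3 was 3.23-fold lower (edgeR adjusted p = 0.00669), Gpx7 5.68-fold higher (0.000719) and Gpx8 2.43-fold higher (0.0232); Gpx7 and Gpx8 were scarce, at means of 1.55 and 0.633 CPM in the ICI replicates. Slc25a39, the carrier of glutathione into mitochondria, was 1.99-fold lower (edgeR adjusted p = 8.93e-06). Oplah, the oxoprolinase that returns glutamate from the glutathione cycle, was 3.56-fold higher, and Ggt5, a gamma-glutamyltransferase family member, 3.08-fold higher. The alpha-class transferase Gsta3 had 81 counts in the libraries labelled ICI against 1 (ratio of pooled counts over pooled library totals 101.1, exact 95% binomial interval 17.6 to 4043). Of 24 further thioredoxin, selenoprotein and repair genes with 1 identifier, 8 were called higher, 9 lower and 7 not called, shares near those of all genes. Of the 4 methionine sulfoxide reductases listed, Msra was not called (edgeR adjusted p = 0.56) and Msrb3 was 4.13-fold higher (adjusted p = 0.000194); both are named after their values were seen. Msrb1, a selenoprotein of cytosol and nucleus, was 3.42-fold lower (36.8 ± 2.35 CPM against 110 ± 8.57 CPM, SD, n = 3 each, edgeR adjusted p = 5.22e-07) and Msrb2 of mitochondria 11.6-fold higher (12.1 ± 1.60 CPM against 0.890 ± 0.329 CPM, adjusted p = 1.13e-06). Aifm2, the ferroptosis suppressor that reduces coenzyme Q, was 4.19-fold lower and the thioredoxin-like Nxn 11.2-fold lower. Selenop, a selenium carrier of resident macrophages and liver, named after its value was seen, was 9.69-fold higher at 3292 ± 406 CPM against 296 ± 91.0 CPM (SD, n = 3 each, edgeR adjusted p = 7.19e-06).

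Oxidase subunits and antioxidant genes were then set side by side. All 4 oxidase subunits were called lower, and 16 of 31 antioxidant genes were called lower, 4 higher and 10 not called, where 33.9% of all genes tested were called lower. The median log2 fold change was -0.82 for the 4 subunits and -0.40 for the 30 tested antioxidant genes. Summed per length, the 4 subunits came to 2283, 2318 and 2155 TPM in ICI replicates 1, 2 and 3, and to 4531, 4464 and 4221 TPM in the isotype replicates. The antioxidant genes came to 6106, 5725 and 6018 TPM against 8664, 8454 and 8189 TPM. The quotient of the sums was 0.374, 0.405 and 0.358 against 0.523, 0.528 and 0.515, so that each library labelled ICI held less oxidase per antioxidant transcript than each labelled isotype. With median transcript lengths it was 0.310 to 0.357 against 0.387 to 0.390, a narrower gap in the same direction. Under both lengths this direction rested on Cyba. By group means, Cybb, Ncf1 and Ncf4 summed without it were lower by a smaller fraction than the antioxidant genes. With exon unions Ncf1 was at 259 against 314 TPM and Ncf4 at 165 against 261 TPM, while the antioxidant sum was 5950 against 8436 TPM. No test is given, since the sums rest on a choice of members, and a few genes dominate them. With exon unions Cyba stood at 1103 TPM against 2872 TPM, Gpx1 at 2366 against 2583, Txn1 at 215 against 1158, Prdx5 at 175 against 1055, Cybb at 725 against 959 and Txnip at 708 against 262 (means of 3 libraries). Cyba and Gpx1 thus led in the libraries labelled isotype and Gpx1 alone in those labelled ICI. With median lengths Gpx1 led in both groups, at 2063 and 2204 TPM.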

How the data were processed

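The deposited data are 1 table, made by the authors, of raw gene counts by Ensembl identifier in 6 libraries, not normalized. The libraries were non-directional SMART-seq V4 libraries sequenced as read pairs, per the labels' protocols. STAR 2.7.10a, Salmon 1.10.1 and GRCm39 are named in the submitters' processing notes, without their roles. The annotation release and filters are not stated in the sources used here. Symbols came from a table that matched 52029 identifiers (91.3%). Coordinates are printed for RefSeq promoter windows only (GRCm38.p6), since the annotation at hand is of GRCm38; exon unions and median protein-coding transcript lengths for TPM come from it (GENCODE M21). Reads carry no strand, so a gene and an overlapping or antisense partner may share them.

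Counts of ICI and isotype were compared by edgeR 4.0.16 (R 4.3.3) with its quasi-likelihood test (TMM factors, robust dispersions, filterByExpr with a minimum count of 10), with Benjamini-Hochberg adjustment over 14575 genes. SE is the log2 fold change over the root of F. CPM are scaled by library totals, so fitted folds can differ from CPM ratios by the TMM factors. The test was checked on simulated counts: of genes changed 4-fold, 92% of the rises and 95.9% of the falls were called, of those changed 2-fold 63.3% and 78.3%, and 0.107% of 14070 genes without change. The simulation changed 200 genes, with rises and falls in balance, where 68.9% of all genes tested were called in the data. It therefore cannot tell how the test does under a difference that broad. Two-gene ratios used exact two-sided permutation tests. Alternatives were RLE and upper-quartile factors, library totals alone, no filter, a strict filter (50 counts in 3 libraries), DESeq2 1.42.0, limma-voom (limma 3.58.1), a test against 1.5-fold, a replicate block, a sex term, the libraries coded male alone, and each library left out in turn.

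Replicates of a group differed beyond counting noise (chi-square per degree of freedom 12.8 to 35.3) and are biological replicates per the labels. Named were all members, Ptprc and Thy1 with marker genes of the gate and cell types, the 4 genes with the smallest p in each further list, and Rac2 and Cybc1; other names are said to be chosen later. Some items are not reported here. Nnt, which matched 2 identifiers, was left out. The members, lists and rule were chosen with earlier results of these data known. Intervals cover counting error only.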

Additional observations from a re-analysis of the deposited data

How the results depend on the processing

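Of 34 members with a fitted value, 17 kept direction and call in all 17 alternatives, among them Glrx, Txn1, Prdx1, Prdx2, Prdx5, Prdx6, Cyba, Ncf4, Sod2, Keap1, Gstm1, Txnip and Cat. Members called lower ranged from 14 to 23 and those called higher from 3 to 4. Among all genes tested, whose number differed with the filter, those called lower ranged from 2410 to 5119. Those called higher ranged from 3110 to 6255. Only the test against a fold of 1.5 moved a group count by more than 1.5 times, to 2 oxidase subunits lower, and to 3110 higher and 2410 lower of all genes. Upper-quartile factors and library totals alone shifted the all-gene median log2 fold change, 0.03 as reported, to 0.21 and 0.23, and the split of all calls from 5102 higher and 4938 lower to 6155 and 3849, and 6255 and 3724. The signs of 7 uncalled members turned. With upper-quartile factors and with library totals alone the log2 fold changes were 0.0469 and 0.0688 for Nfe2l2, 0.13 and 0.15 for Nqo1, 0.0245 and 0.0513 for Gclm, 0.0398 and 0.0617 for Gss, and 0.11 and 0.14 for Sod1. With the strict filter Sod1 was at 0.0199. In the libraries coded male alone Nqo1 was at 0.0884, Slc7a11 at -0.0845 and Mgst2 at -0.14. With each library left out in turn Nqo1 ranged from -0.36 to 0.36, positive without ICI replicate 2 and without isotype replicate 3, and Mgst2 from -0.24 to 0.79, negative without ICI replicate 3. The cause of these turns was not tested.

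No label says that same-numbered libraries are paired, though they share the sex coded from their counts (replicate 3 female in both groups). The correlations of their deviations from group means were 0.03, 0.06 and 0.13 for replicates 1, 2 and 3, and replicate 1 labelled isotype correlated best with replicate 2 labelled ICI. With the replicate block 20 members were called lower and 3 higher, and 5079 genes higher and 4912 lower. Depth limits the scarce genes Nqo1, Mgst2 and Gsta4, which were at 1.72 CPM or less in all libraries.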
